A study of Caenorhabditis elegans with 6 samples.

Results

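The genes described here encode chaperones and disulfide isomerases of the endoplasmic reticulum (ER) in *Caenorhabditis elegans*. They were chosen by name: the Hsp70 chaperones hsp-3 and hsp-4, the Hsp90 chaperone enpl-1, the lectin chaperones crt-1 and cnx-1, the protein disulfide isomerases pdi-1, pdi-2, pdi-3 and pdi-6, and the oxidase ero-1. Probes were matched through the sequence names in the scanner files, which gave 11 of the 22490 gene probes on the array and 10 of its 18889 genes. All 11 probes were above local background in 12 of 12 channels, so the filter on dim probes removed none of them.

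Nematodes of the wild-type strain N2 were grown from synchronised eggs at 24 °C on agar with chlorpyrifos at 0.5 mg/l (CPF), an organophosphorus compound known as an inhibitor of acetylcholinesterase, or on agar holding only the solvent acetone. Both groups thus shared the solvent, the strain, the temperature and the bacterial food. Per the labels the animals were L3/L4 larvae at 72 h, whereas the study's methods give a shorter culture for late L3 larvae at 24 °C and tie the time in the labels to larvae reared at a lower temperature. RNA of whole animals, pooled from several dishes per sample, was hybridised as 1 CPF and 1 control sample on each of 6 arrays of printed long oligonucleotides. The CPF sample was labelled with Cy5 in 3 hybridisations, called CPF in Cy5, and with Cy3 in the remaining 3, called CPF in Cy3. In whole animals, fewer cells of a type and less RNA per cell cannot be told apart. Scanning was done orientation by orientation, with CPF in Cy3 first, so that an effect of the dye, of the slides or of the animals on the difference between orientations cannot be told apart.

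Secreted and membrane proteins fold in the ER. Hsp70 and Hsp90 chaperones hold unfolded chains there, calnexin and calreticulin bind chains through their sugars, and disulfide isomerases form and rearrange the bonds between cysteines, with an oxidase that recharges them. When unfolded proteins build up, the unfolded protein response raises the transcription of many of these genes, and hsp-4 is a widely used reporter of its branch through ire-1 and xbp-1. In *C. elegans* the disulfide isomerases also serve the enzymes that hydroxylate collagen for the cuticle.

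Across the array, between 35.2% and 56.1% of gene probes were above local background in the Cy3 channel and between 38.3% and 53.4% in the Cy5 channel. Ratios were most scattered on CPF in Cy3 replicate 1, with an SD of 0.900 in log2 units, and the SD was between 0.424 and 0.468 on the other arrays. Values are log2 ratios of CPF over control after normalisation, and fitted values carry the moderated SE of a model with CPF and dye terms. Precision is limited by there being only 6 arrays.

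None of the 10 genes passed an adjusted p of 0.05 for CPF against control (limma, Benjamini-Hochberg over all tested probes), 0 higher and 0 lower. Over all tested genes, 3.31% passed, 0.965% as higher and 2.34% as lower with CPF. Of the listed genes, hsp-4, crt-1 and pdi-6 were under an unadjusted p of 0.05, as were 25.4% of all tested genes. The fitted ratio was negative for 8 of the 10, and the median of the list was -0.22, against a median of 0.01 over the 9948 tested genes, of which 50.9% were positive. Directions are those of the scanner files and their labels. Each of the 6 columns in the deposited table instead resembled an array hybridised with the dyes the other way round, so under the labels of that table every sign given here would turn.

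**Figure D1:**
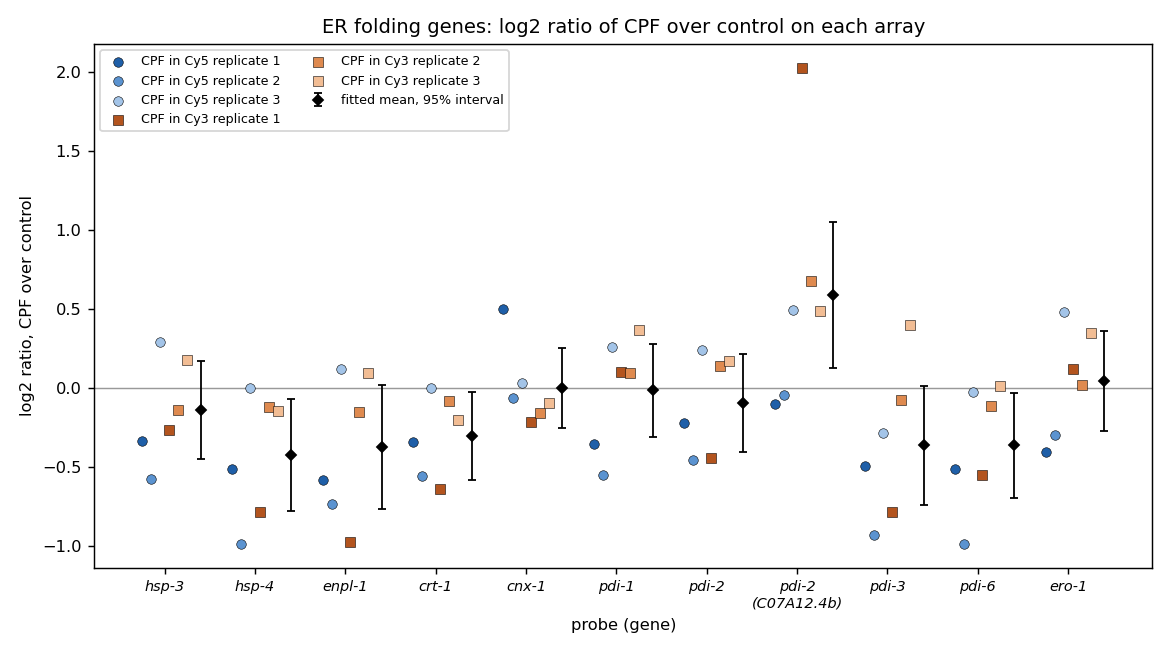
Normalised log2 ratio of CPF over control (vertical axis) for each of the 11 probes (horizontal axis). Circles are the CPF in Cy5 arrays, squares the CPF in Cy3 arrays, and black diamonds the fitted means with 95% intervals from 6 arrays. Most genes have their lowest points on CPF in Cy5 replicates 1 and 2 and CPF in Cy3 replicate 1, and the pdi-2 probe C07A12.4b has 1 point at 2.02, far above its others.

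The Hsp70 chaperone hsp-4 (F43E2.8), a counterpart of mammalian BiP, had the lowest fitted ratio of the list. Its log2 ratio was -0.51, -0.98 and 0.00 on CPF in Cy5 replicates 1 to 3, and -0.78, -0.12 and -0.14 on CPF in Cy3 replicates 1 to 3. Thus 5 of 6 arrays were below 0 and the remaining array lay at 0. The fit gave -0.42 ± 0.15 (SE, n = 6), with a 95% interval of -0.78 to -0.07, which is 0.745 times the control level, at an adjusted p of 0.133 (limma). Leaving out 1 array kept it between -0.55 and -0.30.

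The other Hsp70 chaperone, hsp-3 (C15H9.6), is a close paralog of hsp-4. Its ratios were -0.33, -0.57 and 0.29 on the CPF in Cy5 arrays and -0.27, -0.14 and 0.18 on the CPF in Cy3 arrays. The arrays lay on both sides of 0, with the replicate 3 array of each orientation positive. The fitted ratio was -0.14 ± 0.14 (SE, n = 6, adjusted p = 0.506 by limma), and ran from -0.05 without CPF in Cy5 replicate 2 to -0.26 without CPF in Cy5 replicate 3. Because the sequences of hsp-3 and hsp-4 are alike, a probe of either could also bind the other transcript, which was not tested.

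The Hsp90 chaperone enpl-1 (T05E11.3), the counterpart of mammalian GRP94, had a wide spread. Its ratios were -0.58, -0.74 and 0.12 on the CPF in Cy5 arrays and -0.97, -0.15 and 0.10 on the CPF in Cy3 arrays. Both replicate 3 arrays were again above 0 and the other 4 below. The fit gave -0.37 ± 0.17 (SE, n = 6), with an interval of -0.76 to 0.02 and an adjusted p of 0.20 (limma). Without CPF in Cy3 replicate 1 the ratio was -0.21.

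The lectin chaperones differed from each other. Calreticulin, crt-1 (Y38A10A.5), which also binds calcium, had ratios of -0.34, -0.56 and 0.00 on the CPF in Cy5 arrays and -0.64, -0.08 and -0.20 on the CPF in Cy3 arrays. All arrays but 1 were below 0. Its fitted ratio was -0.30 ± 0.12 (SE, n = 6, with a 95% interval of -0.58 to -0.02 and an adjusted p of 0.158 from limma). The crt-1 spot was partly saturated in the control channel of CPF in Cy3 replicates 1 and 3, with 35.5% and 38.2% of its pixels at the limit of the scanner. With those spots left out, the ratio was -0.19 at an adjusted p of 0.492 (limma).

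Calnexin, cnx-1 (ZK632.6), which is anchored in the ER membrane, had a ratio of 0.50 on CPF in Cy5 replicate 1 and ratios between -0.22 and 0.03 on the other 5 arrays. That array alone stood apart from the rest. The fitted ratio was 0.00 ± 0.11 (SE, n = 6, 95% interval -0.25 to 0.25), and without CPF in Cy5 replicate 1 it was -0.09.

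Of the disulfide isomerases, pdi-3 and pdi-6 had negative fitted ratios close to that of enpl-1, while the fitted ratios of pdi-1 and of the brighter pdi-2 probe lay within 1 SE of 0. The gene pdi-6 (B0403.4) had ratios of -0.51, -0.98 and -0.03 on the CPF in Cy5 arrays and -0.55, -0.11 and 0.01 on the CPF in Cy3 arrays. Its fit gave -0.36 ± 0.14 (SE, n = 6, with a 95% interval of -0.69 to -0.03 and an adjusted p of 0.157 from limma), with 5 of 6 arrays below 0.

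The gene pdi-3 (H06O01.1) had ratios of -0.49, -0.93 and -0.28 on the CPF in Cy5 arrays, all below 0. On the CPF in Cy3 arrays they were -0.78, -0.08 and 0.40, so that only replicate 3 was positive there. The fitted ratio was -0.36 ± 0.16 (SE, n = 6, with a 95% interval of -0.74 to 0.01 and an adjusted p of 0.193 from limma), and without CPF in Cy3 replicate 1 it was -0.21.

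The ratios of pdi-1 (C14B1.1) were -0.35, -0.55 and 0.26 on the CPF in Cy5 arrays and 0.10, 0.09 and 0.37 on the CPF in Cy3 arrays. The orientations overlapped, with all 3 CPF in Cy3 arrays positive. The fitted ratio was -0.01 ± 0.13 (SE, n = 6, adjusted p = 0.957 by limma).

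The isomerase pdi-2, the partner of the collagen prolyl hydroxylases, had 2 probes that gave different ratios. The brighter probe, C07A12.4a, had ratios of -0.22, -0.45 and 0.24 on the CPF in Cy5 arrays and -0.45, 0.14 and 0.17 on the CPF in Cy3 arrays, with a fit of -0.10 ± 0.13 (SE, n = 6, adjusted p = 0.658 by limma). The dimmer probe, C07A12.4b, had ratios of -0.10, -0.05 and 0.49 on the CPF in Cy5 arrays and 2.02, 0.68 and 0.49 on the CPF in Cy3 arrays, with a fit of 0.59 ± 0.20 (SE, n = 6, with a 95% interval of 0.13 to 1.05 and an adjusted p of 0.121 from limma). Without CPF in Cy3 replicate 1 the ratio of C07A12.4b was 0.35. The probe names carry different isoform letters, but which transcripts each probe detects is not given in the sources used here.

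The ratio of C07A12.4b exceeded that of C07A12.4a on 6 of 6 arrays, by 0.68 on average and by between 0.12 and 2.47 on single arrays. The exact two-sided sign-flip permutation test gave p = 0.0312, the smallest that 6 arrays allow, for a difference that was picked out after its values were seen. Without CPF in Cy3 replicate 1 the mean difference was 0.33. The C07A12.4a spot was partly saturated on CPF in Cy3 replicates 1 and 3, with between 18.4% and 50% of its pixels at the limit in either channel, and with these spots left out its fitted ratio was 0.00. On the 4 arrays without saturated pixels the difference lay between 0.12 and 0.54, and the 2.47 was on CPF in Cy3 replicate 1, where the spot was partly saturated. The part of saturation in the difference between the probes was not tested.

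The thiol oxidase ero-1 (Y105E8B.8), which passes oxidising power to the disulfide isomerases, had ratios of -0.41, -0.29 and 0.48 on the CPF in Cy5 arrays and 0.12, 0.02 and 0.35 on the CPF in Cy3 arrays. Arrays of both signs occurred, and the fitted ratio was 0.04 ± 0.14 (SE, n = 6, with a 95% interval of -0.27 to 0.36 and an adjusted p of 0.853 from limma).

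The dye term passed for none of the 11 probes, with adjusted p-values of 0.501 or more (limma), against 1 of the 11033 tested probes (0.00906%). The smallest belonged to the pdi-2 probe C07A12.4b, whose mean was 0.11 ± 0.33 (SD, n = 3) on the CPF in Cy5 arrays and 1.06 ± 0.84 (SD, n = 3) on the CPF in Cy3 arrays. For hsp-4 the means were -0.50 ± 0.49 (SD, n = 3) and -0.35 ± 0.38 (SD, n = 3). For pdi-3 they were -0.57 ± 0.33 and -0.15 ± 0.59 (SD, n = 3 each), a gap smaller than the spread within the CPF in Cy3 arrays.

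Seen array by array, the genes lay low on the same arrays. Their median was -0.38 on CPF in Cy5 replicate 1, with 1 of 10 genes positive, and -0.57 on CPF in Cy5 replicate 2, with 0 of 10 positive. It was 0.08 on CPF in Cy5 replicate 3, where 8 of 10 were positive. On the CPF in Cy3 arrays the medians were -0.50, -0.10 and 0.13 for replicates 1 to 3, with 2, 3 and 7 of 10 positive. The median of all tested genes stayed between -0.02 and 0.04 on every array. Over the 2233 tested genes at least as bright as the dimmest gene of the list, it lay between -0.05 and 0.10.

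**Figure D2:**
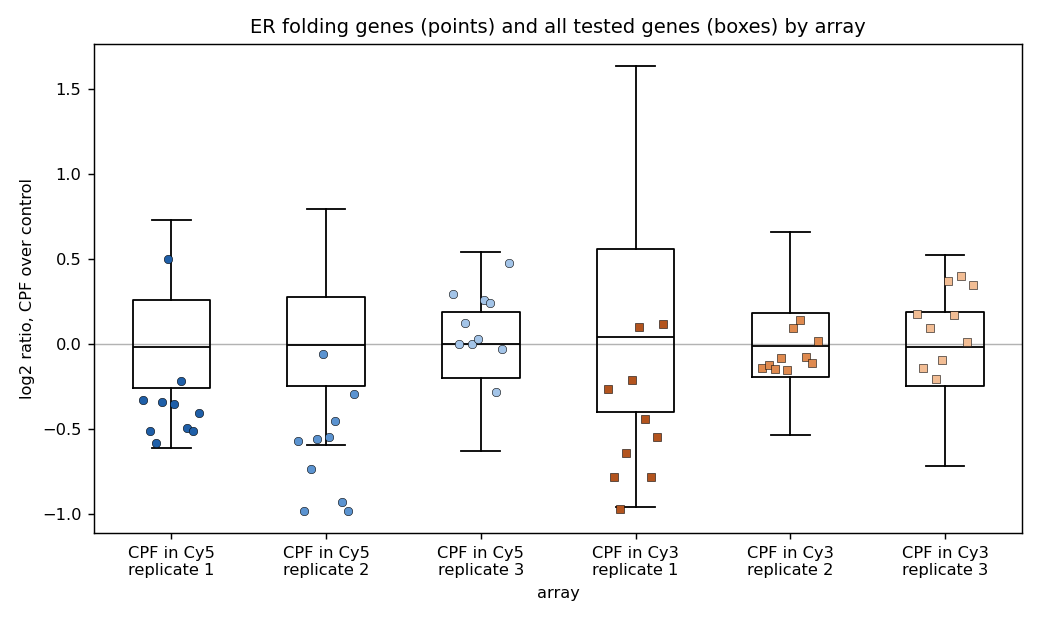
Normalised log2 ratio of CPF over control (vertical axis) on each of the 6 arrays (horizontal axis). Boxes span the 25th to 75th percentiles of the 9948 tested genes with the median as a line, whiskers reach the 5th and 95th percentiles, and points are the 10 ER folding genes. The points lie mostly below the box on CPF in Cy5 replicates 1 and 2, and straddle the median on both replicate 3 arrays.

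Across the 6 arrays the ratios of the genes varied together, given here as a description over arrays that were normalised together. Of the 45 pairs, 36 had a Pearson correlation above 0.5, and the median was 0.77. The same share among pairs of other genes was not computed. The closest pair was hsp-4 with the brighter pdi-2 probe, at 0.98. All 7 pairs below 0 held cnx-1, whose correlation with the median of the other 9 genes was -0.11, while each of those 9 had 0.71 or more with the median of the others. In the array order used above, the means of the ER folding genes were -0.325, -0.612, 0.111, -0.443, -0.059 and 0.112. The 5 oligosaccharyl transferase subunits had a similar profile, at -0.284, -0.65, 0.047, -0.463, -0.022 and 0.23, so it was not particular to the list. The 6 tested chaperonin ring subunits had positive means on every array, between 0.08 and 1.09. Those means rested largely on cct-5 and cct-8, with fitted ratios of 1.34 and 1.24. The fitted ratios of cct-1, cct-2, cct-3 and cct-7 lay between -0.27 and 0.13, and the median of the list was 0.08. On CPF in Cy5 replicates 1 and 2, cct-1, cct-2, cct-3 and cct-7 were each below 0.

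Outside the list, the 5 genes whose ratios over the 6 arrays were most like the median of the list were Y41E3.7 (r = 0.99), F56A8.3 (0.99), cpr-5 (0.99), vha-13 (0.98) and F08D12.2 (0.98). The gene cpr-5 encodes a cathepsin B-like protease and vha-13 a subunit of the vacuolar proton pump. These were the closest of 9938 genes, so a high correlation is set by the choice. The fitted ratio was -0.37 ± 0.20 (SE, n = 6, adjusted p = 0.260 by limma) for cpr-5 and -0.19 ± 0.13 (SE, n = 6, adjusted p = 0.352 by limma) for vha-13.

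Normalisation moved the ratios by different amounts on each array. Written as raw minus normalised, the median shift over the 10 genes was -0.37 on CPF in Cy5 replicate 1 and 0.93 on CPF in Cy5 replicate 2. Raw medians were -0.73, 0.36 and 0.20 on the CPF in Cy5 arrays and 0.15, -0.56 and -0.14 on the CPF in Cy3 arrays. On CPF in Cy5 replicate 2 and CPF in Cy3 replicate 1, the arrays with the lowest normalised medians (-0.57 and -0.50), the raw medians were thus above 0. On CPF in Cy3 replicate 3 the raw median was below 0 and the normalised median was 0.13. The shift on CPF in Cy3 replicate 1 ran from 0.37 to 1.2 between genes.

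The brightness of each channel shows the same genes without any scaling between dyes. For hsp-4, net brightness above local background ran from 2203 to 8936 scanner units in the CPF channels, with a median of 3145, and from 2289 to 8524 in the control channels, with a median of 3406.5. The ranges overlapped almost wholly, and CPF was the brighter channel on 2 of 6 arrays. For enpl-1 the medians were 7251 for CPF and 9683.5 for control, and for pdi-6 they were 5697 and 9138, again with overlapping ranges and with CPF brighter on 2 of 6 arrays. The channels were paired on each array, so medians and ranges over arrays do not give the ratio. The median raw log2 ratio within arrays was -0.2 for hsp-4, -0.16 for enpl-1 and -0.14 for pdi-6. For pdi-3, CPF was brighter on 1 of 6 arrays, with medians of 12978 and 13566.5 and a median raw log2 ratio within arrays of -0.08. These 4 genes all had negative fitted ratios. CPF was brighter on 4 of 6 arrays for cnx-1, pdi-1 and ero-1, on 3 for hsp-3 and on 2 for crt-1. It was brighter on 2 for the pdi-2 probe C07A12.4a and on 5 for C07A12.4b. The dimmest gene, ero-1, had a lowest channel of 447 units, above a local background that was at most 188 units for its spots.

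**Figure D3:**
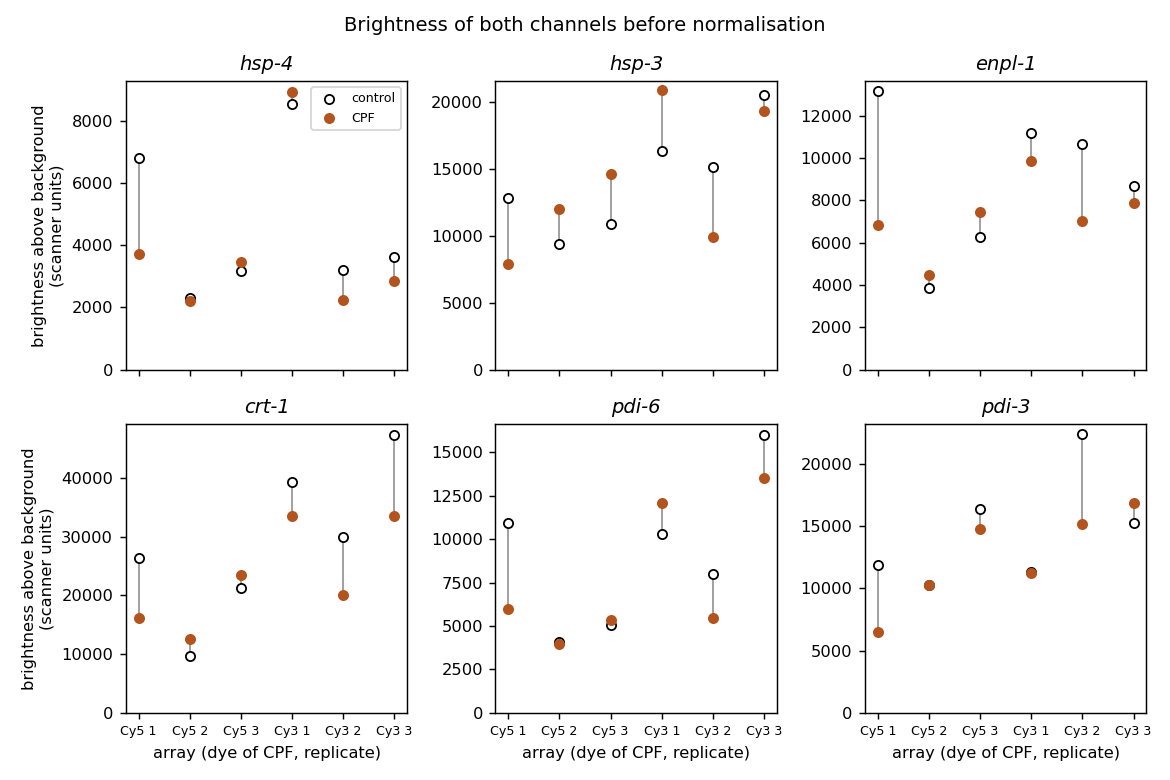
Net brightness in scanner units (vertical axes, each starting at 0) of the CPF channel (filled) and the control channel (open) on each of the 6 arrays (horizontal axes) for 6 genes, before normalisation. The 6 genes, hsp-4, hsp-3, enpl-1, crt-1, pdi-6 and pdi-3, all had negative fitted ratios. Lines join the channels of an array. The channels of hsp-4 lie close together on most arrays, while its CPF channel runs from 2203 to 8936 units between arrays.

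Genes of the neighbouring steps of the secretory pathway were read in the same fit, with lists set from gene names. None of the 13 tested genes among the other ER folding enzymes passed, and their median was 0.05. The peptidyl-prolyl isomerases fkb-3 and cyn-6 were positive on 6 of 6 arrays, at 0.39 ± 0.13 and 0.27 ± 0.10 (SE, n = 6 each), with adjusted p-values of 0.116 and 0.146 (limma). Over all tested genes, 7.04% were positive on every array.

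None of the 6 regulators of the unfolded protein response passed, with a median of -0.03. The transcription factor xbp-1 had ratios of -0.56, -0.80 and -0.79 on the CPF in Cy5 arrays and -0.03, -0.38 and -0.09 on the CPF in Cy3 arrays. It was thus below 0 on 6 of 6 arrays, as were 8.57% of all tested genes. Its fitted ratio was -0.44 ± 0.10 (SE, n = 6), with an adjusted p of 0.0558 (limma), and it passed under 9 of 24 alternative analyses. Most of these called a larger share of all probes than the 3.50% of the main analysis, up to 45.4% with array weights. The fit without background correction, where xbp-1 also passed, called fewer probes (243 against 386). The kinase and nuclease ire-1, which splices the xbp-1 transcript, was at -0.27 ± 0.11 (SE, n = 6, adjusted p = 0.157 by limma).

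None of the 14 genes of ER-associated degradation passed, with a median of 0.03. The named values were -0.43 ± 0.11 for hrdl-1 (adjusted p = 0.0657) and 0.62 ± 0.17 for npl-4.1 (adjusted p = 0.0752, both by limma, with SE from n = 6). The npl-4.1 probe was above background in only 6 of 12 channels, and its ratio was 0.03 when CPF in Cy5 was fitted alone and 1.21 when CPF in Cy3 was. For hrdl-1 these values were -0.22 and -0.64. All 5 oligosaccharyl transferase subunits had negative ratios, with a median of -0.12, and 0 passed. The largest in size were the catalytic subunit stt-3 at -0.33 ± 0.18 and ostd-1 at -0.31 ± 0.16 (SE, n = 6 each, adjusted p = 0.264 and 0.239 by limma). Without CPF in Cy3 replicate 1, stt-3 was at -0.15. Without CPF in Cy5 replicate 2 or replicate 3, ostd-1 was at -0.18 or -0.47.

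For translocation into the ER, 8 of 12 genes were positive, the median was 0.04 and 0 passed, with trap-3 at 0.31 ± 0.11 and the channel subunit sec-61.A at 0.23 ± 0.10 (SE, n = 6 each, adjusted p = 0.123 and 0.197 by limma). Of the collagen hydroxylases, among which the prolyl hydroxylases contain the pdi-2 protein, 3 of 5 were tested and 0 passed, with phy-2 at 0.14 ± 0.10 and the lysyl hydroxylase let-268 at -0.20 ± 0.17 (SE, n = 6 each). Without CPF in Cy3 replicate 1, let-268 was at -0.01. The ER calcium pump sca-1 and the calcium channel unc-68 were at -0.28 ± 0.15 and -0.22 ± 0.16 (SE, n = 6 each), and 0 of the 3 tested genes of that list passed. Without CPF in Cy3 replicate 1 they were at -0.14 and -0.07.

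Chaperones outside the ER gave 2 calls, both higher, while 0.965% of all tested genes were called higher. The mitochondrial chaperonin hsp-60 was at 0.54 ± 0.12 (SE, n = 6, adjusted p = 0.0498 by limma), the only one of 9 tested cytosolic and mitochondrial chaperones to pass. It was above 0 on 6 of 6 arrays, as were 7.04% of all tested genes, but at only 0.0024 on CPF in Cy5 replicate 2. The cytosolic chaperonin subunit cct-5 was at 1.34 ± 0.27 (SE, n = 6, adjusted p = 0.0401 by limma), the only one of 6 tested ring subunits. Both calls were lost under most alternatives tried, 15 of 24 for hsp-60 and 14 of 23 for cct-5. The difference between these calls and the ER folding genes was not tested.

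**Figure D4:**
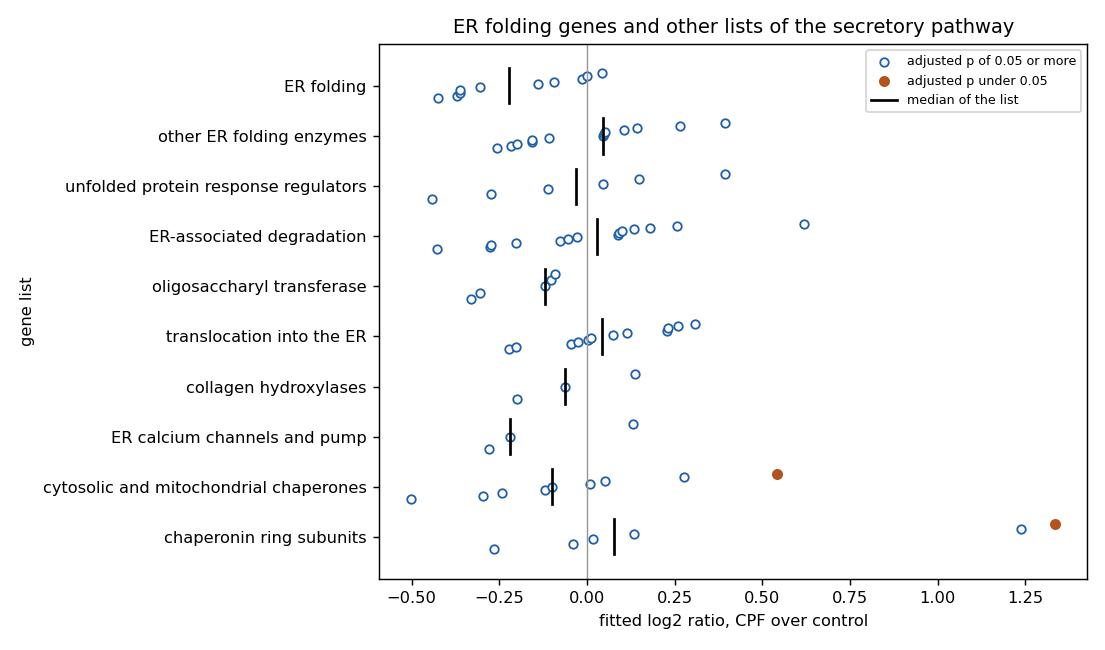
Fitted log2 ratio of CPF over control (horizontal axis) of each tested gene, in the ER folding list and 9 other lists (vertical axis). Filled points passed an adjusted p of 0.05 and black lines are list medians. No ER list holds a filled point, and hsp-60 at 0.54 and cct-5 at 1.34 are the 2 that passed.

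The samples were whole animals, so markers of tissues were read beside these values. All 5 intestinal markers were above background, with mean ratios between -0.38 and 0.06 on single arrays and 0 of 5 past the threshold. The mean of 3 yolk protein genes was 1.16, 1.25 and 2.49 on the CPF in Cy5 arrays and 0.26, -0.21 and -0.10 on the CPF in Cy3 arrays, with 2 of 3 passing as higher. The intestinal ges-1, named after its values were seen, was at -0.42 ± 0.11 (SE, n = 6, adjusted p = 0.0702 by limma) and negative on 6 of 6 arrays. Of the other intestinal markers, ifb-2 was at -0.26 ± 0.13 and act-5 at -0.17 ± 0.11 (SE, n = 6 each). In contrast, elt-2 was at -0.04 ± 0.13 and pept-1 at 0.40 ± 0.26 (SE, n = 6 each), the latter with 2.26 on CPF in Cy3 replicate 1. Of the sperm markers, 1 of 3 tested passed as higher, and the mean of the 3 lay between -0.15 and 0.97 on single arrays. None passed among the other markers. The 4 oocyte markers all had positive fitted ratios, with array means between 0.18 and 0.44, and 4 of 5 cuticle markers did, with array means between 0.0093 and 1.13. All 3 neuronal markers had negative fitted ratios, with array means between -0.78 and -0.08. Array means ran from -0.38 to 0.20 for 5 muscle markers and from -0.35 to 0.32 for 4 pharyngeal markers. The part of tissue make-up or stage in the ratios of the ER folding genes was not tested.

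**Figure D5:**
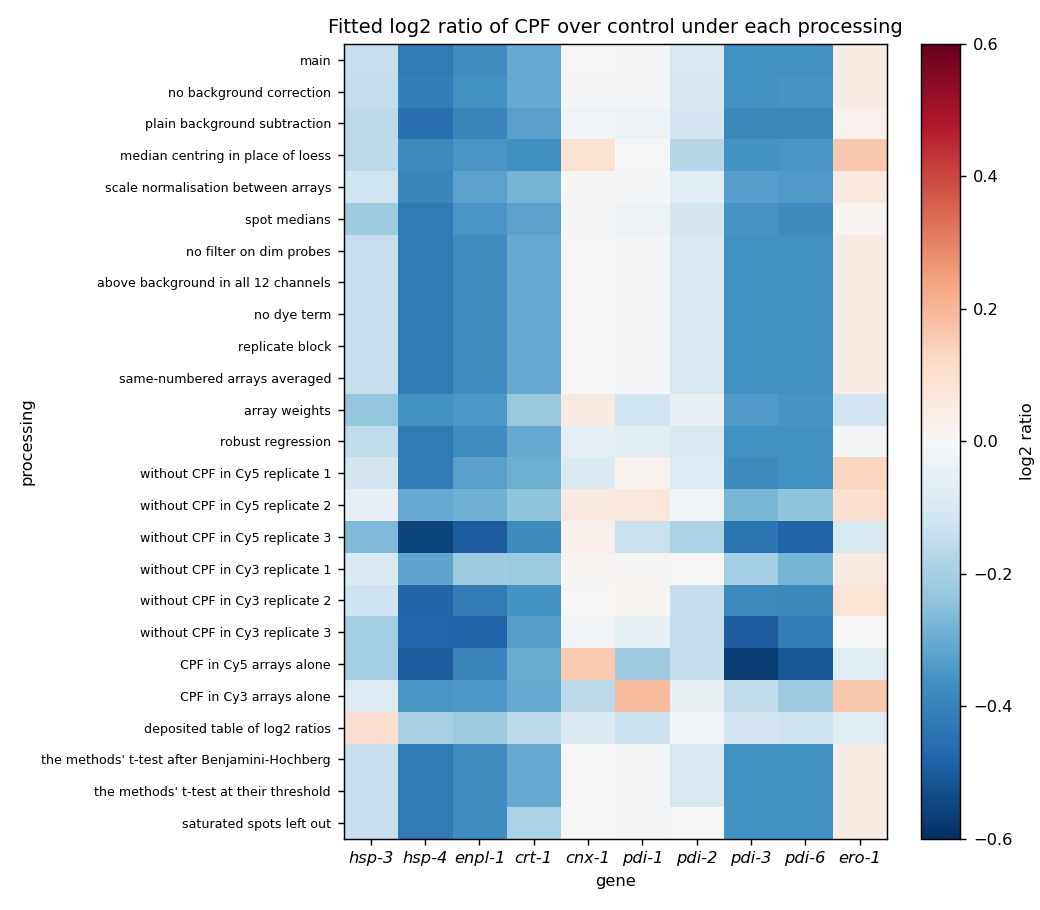
Fitted log2 ratio of CPF over control (colour, blue below 0 and red above) of the 10 ER folding genes (horizontal axis) under the main analysis and 24 alternatives (vertical axis). The columns of hsp-4, enpl-1, crt-1, pdi-3 and pdi-6 stay blue in every row (in the deposited table after its columns were matched and turned to the scanner files), while cnx-1, pdi-1, pdi-2, ero-1 and hsp-3 change sign in at least 1 row.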

How the data were processed

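The authors deposited spot intensity (mean and median, local background) without normalisation, and the percent of saturated pixels, per the file headers. Their deposited log2 ratios came from limma 3.2.3 after loess and Aquantile normalisation, and some are blank. Its direction is not stated, and it served only as an alternative, each column assigned and turned to the array it matched. Over 5963 bright probes its columns correlated at 0.916 to 1 in size with the array of the opposite orientation and the same number.

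After removal of 742 control and blank spots, background was corrected by normexp with an offset of 50. Ratios were normalised by loess and Aquantile, and fitted in limma 3.58.1 (R 4.3.3) with a CPF and a dye term. P-values were 2-sided and adjusted by Benjamini-Hochberg. Testing required a spot median 2 SDs over its background in 6 or more of 12 channels. The 49.1% of gene probes that met this give the depth. The brightest probe stood for a gene. The code was tested on simulated data. The methods describe 6 biological replicates. Same-numbered arrays of both orientations correlated at 0.103, -0.0788 and 0.271 in their deviations, so pairing is not shown. Figures used matplotlib 3.10.9.

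All 10 genes were named, with, from each other list, genes past the threshold or else the 2 with the smallest p. Members and lists were chosen with earlier results of these data known. Alternatives covered background, normalisation, filter, dye term, weights and arrays left out.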

Additional observations from a re-analysis of the deposited data

Results flagged for a closer look

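Among the 6 arrays, 3 single values stood far from the other arrays of the same probe, by Dixon's test of the gap to the nearest value. Chance alone flags about 1 in 20 such groups. The screen covered the 11 probes of the ER folding genes and every gene named by rule from the other lists, so some flags may arise by chance. The log2 ratio of cnx-1 was 0.50 on CPF in Cy5 replicate 1, against 0.03 as the next highest. The pdi-2 probe C07A12.4b was at 2.02 on CPF in Cy3 replicate 1, against 0.68 as the next highest, and 32.7% of all tested genes had their highest ratio on that array. The collagen hydroxylase phy-2 was at -0.29 on CPF in Cy5 replicate 1, against 0.12 as the next lowest.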

How the results depend on the processing

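The count of ER folding genes past the threshold was 0 under every alternative except array weights, which called 6 lower (hsp-3, hsp-4, enpl-1, crt-1, pdi-3 and pdi-6). That fit called 20.3% of all tested probes lower, its weights ran from 0.142 to 27.4 and its estimate did not converge. The median of the list (-0.22) kept its sign under the alternatives fitted on the scanner files, between -0.32 and -0.14 when 1 array was left out, the latter without CPF in Cy5 replicate 2. In the deposited table it was -0.12, a sign set by turning its columns to the scanner files, and under the labels of that table it would be positive. Through blank values, each ER folding gene there rests on 3 to 5 arrays, and hsp-3 lacks CPF in Cy5 replicates 1 and 2. The count over all probes was 386 of 11033 (3.50%). It moved to 243 with no background correction, 233 with plain subtraction, 54 with median centring and 1268 with scale normalisation. A changed filter also changed the number of tested probes. It gave 256 of 5963 with all 12 channels above background and 265 of 22490 (1.18%) with no filter on dim probes. The count was 205 without the dye term, 165 with same-numbered arrays averaged, 5005 with array weights and 1512 with robust regression. It was 629 and 20 with the CPF in Cy5 or CPF in Cy3 arrays alone, and 712 of 10966 in the deposited table. Leaving out 1 array gave 58 (without CPF in Cy5 replicate 1) to 1323 (without CPF in Cy3 replicate 3). With the replicate block it was 169, with 0 ER folding genes, and hsp-60 and cct-5 no longer passed. A t-test on single channels, modelled on the study's methods, gave 8 after Benjamini-Hochberg and 89 at the study's threshold. It left out the study's outlier removal and joint normalisation with the lower-temperature arrays, so it does not repeat the study's analysis. Median centring moved the median of all probes from 0.02 to 0.12.

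Some single ratios turned sign. The ratio of cnx-1 was -0.0051 with no background correction, -0.023 with subtraction, -0.0096 with spot medians, -0.056 with robust regression, -0.085 to 0.055 with 1 array left out, -0.16 on the CPF in Cy3 arrays alone and -0.085 in the deposited table. The ratio of pdi-1 was 0.0010 with median centring, 0.19 on the CPF in Cy3 arrays alone and -0.13 to 0.070 with 1 array left out. The ratio of pdi-2 was 0.25 as the mean of its probes and -0.19 to 0.0043 with 1 array left out. The ratio of ero-1 was -0.12 with array weights, -0.012 with robust regression, -0.074 on the CPF in Cy5 arrays alone, -0.073 in the deposited table and -0.094 to 0.13 with 1 array left out. In the deposited table hsp-3 was at 0.10, ostd-1 at 0.0048 and let-268 at 0.021, and phy-2 was at -0.018 on the CPF in Cy5 arrays alone. The cause was not tested. The pdi-2 probe C07A12.4b passed with scale normalisation (adjusted p = 0.0475, limma), with array weights (0.00590) and when CPF in Cy3 replicate 3 was dropped (0.0474). Leaving out saturated spots, chosen after seeing the data, gave 394 probes. Signal over background limits dim genes, which none of the ER folding genes are.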
